A study of Mus musculus with 19 samples.

Results

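The genes described here code for 8 factors that hepatic stellate cells (HSCs) release around themselves in the healthy liver, namely Dcn, Ecm1, Colec10, Colec11, Hgf, Rspo3, Angptl6 and Hhip. They were chosen by name out of the 55487 genes in the deposited count table. All 8 passed edgeR's default filter on low counts, which left 15138 genes for testing. HSCs came from healthy Balb/c males that were 23 to 24 weeks old and were sorted by the ultraviolet fluorescence of their vitamin A. One fraction was collected without culture (0 h, 2 samples). The remainder was plated on collagen in 24-well plates in Dulbecco's modified Eagle's medium with 10% fetal bovine serum and collected after 3, 6, 12, 18 and 96 h (3 samples each) or 24 h (2 samples), with fresh medium at 3 h and 24 h. No sample received any other treatment, and each pools 2 technical repeats. The labels give each sample a replicate number (1, 2 or 3) and an isolation date, and do not say what samples of 1 number share. Replicates 1 and 3 have 1 date and replicate 2 another, and replicate 1 has no 0 h sample, so that every comparison with 0 h has replicates 2 and 3 as its controls.

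In the healthy liver, quiescent HSCs lie between the sinusoidal endothelium and the hepatocytes, and signal to both. HGF is the ligand of the receptor MET on hepatocytes and drives their proliferation. R-spondin 3 (Rspo3) binds LGR4 and LGR5 and lifts the removal of Wnt receptors by ZNRF3 and RNF43, which holds up Wnt signalling in hepatocytes around the central vein. Hedgehog-interacting protein (Hhip) binds hedgehog ligands at the cell surface and limits their action. Colec10 and Colec11 code for the collectins CL-L1 and CL-K1, soluble C-type lectins that recruit the MASP proteases and start the lectin pathway of complement. Decorin (Dcn) is a small leucine-rich proteoglycan that binds collagen fibrils and TGF-β, Ecm1 is a matrix protein that keeps TGF-β latent, and Angptl6 is an angiopoietin-like growth factor. When HSCs are plated, they lose their vitamin A and become myofibroblast-like, and the cultures follow this process over time.

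The 8 genes lie on 7 chromosomes of the mouse genome (GRCm38, GENCODE M21) and are all protein coding. Dcn spans 97479609 to 97518143 on chromosome 10 (plus strand), and Rspo3 lies on the same chromosome at 29452416 to 29535867 (minus strand). Ecm1 spans 95734147 to 95739569 on chromosome 3 (minus strand). Colec10 spans 54410774 to 54466358 on chromosome 15 (plus strand), and Colec11 spans 28594173 to 28623377 on chromosome 12 (minus strand). Hgf spans 16553495 to 16620152 on chromosome 5 (plus strand), Angptl6 spans 20873808 to 20879727 on chromosome 9 (minus strand), and Hhip spans 79965851 to 80058006 on chromosome 8 (minus strand). The libraries were made from the 3' ends of mRNAs, so that counts came mostly from the last bases of each transcript, and levels were compared only within a gene.

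RefSeq (GRCm38.p6) gave a promoter window for 5 of the 8 genes, and Dcn, Colec10 and Rspo3 were not in that table. The 250 bases before the start are shown for Ecm1, which was higher after plating before it fell, for Colec11, whose 96 h level was the lowest relative to 0 h among the genes with counts there, and for Hhip, which differs in base composition. Motifs were searched on both strands, and matches are in capitals.
Ecm1 (chr3:95739570-95739819, minus strand): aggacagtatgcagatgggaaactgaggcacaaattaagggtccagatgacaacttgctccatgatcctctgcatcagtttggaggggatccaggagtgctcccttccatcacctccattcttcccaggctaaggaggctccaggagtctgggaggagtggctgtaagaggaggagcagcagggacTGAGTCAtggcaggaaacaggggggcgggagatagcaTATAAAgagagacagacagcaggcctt
Colec11 (chr12:28623331-28623580, minus strand): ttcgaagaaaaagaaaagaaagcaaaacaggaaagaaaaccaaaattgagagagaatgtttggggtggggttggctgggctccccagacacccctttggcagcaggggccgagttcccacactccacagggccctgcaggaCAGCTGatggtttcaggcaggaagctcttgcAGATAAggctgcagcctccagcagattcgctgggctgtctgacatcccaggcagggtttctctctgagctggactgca
Hhip (chr8:80058009-80058258, minus strand): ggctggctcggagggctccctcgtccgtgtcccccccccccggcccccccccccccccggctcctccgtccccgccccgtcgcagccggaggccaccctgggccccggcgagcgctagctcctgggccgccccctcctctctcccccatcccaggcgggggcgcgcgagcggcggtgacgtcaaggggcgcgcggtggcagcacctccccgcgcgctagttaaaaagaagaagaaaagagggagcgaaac
The Ecm1 window held TGAGTCA, a match to the AP-1 motif TGANTCA, which began 64 bases before the start, and a TATA box (TATAAA) at 27 bases. Of all 32851 promoter windows, 6.75% held TGANTCA and 12.4% held TATAAA. The Colec11 window held the E-box CAGCTG at 109 bases and the GATA motif AGATAA at 78 bases, which were found in 13% and 9.99% of all windows. Hhip, Hgf and Angptl6 held none of these motifs, nor the LIM homeodomain core TAATTA (4.84% of windows). The Hhip window had 76% G and C and 28 CpG, against medians of 52.4% and 6 over all windows, whereas Ecm1 had 54% with 1 CpG and Colec11 had 54.4% with 3. None of the sequences was tested for binding or activity in these data.

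Libraries held 2073171 to 7690892 counts. Levels are given as CPM (counts relative to the TMM-scaled library total, on the usual CPM scale), and 3 counts, taken as the smallest level a library could show, corresponded to 0.386 to 1.51 CPM. The reads carry no molecular identifiers, so these floors cover counting error only. The 8 genes together made up 2.53% and 2.66% of all counts at 0 h and 0.188% and 0.212% at 24 h, and Dcn alone made up 1.75% and 1.80% at 0 h. Changes were tested with edgeR's quasi-likelihood F test in 1 fit of all 19 samples, and a gene was called as risen or fallen at an adjusted p below 0.1 (Benjamini-Hochberg over all genes tested) and a fold change above 2. The samples are bulk cultures, in which fewer cells of a type and less RNA per cell cannot be told apart.

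Relative to 0 h, no gene of the 8 was called at 3 h, where 1.39% of all genes tested were called lower and 4.19% higher. At 6 h, 2 of 8 had fallen (Colec11 and Hgf) against 4.35% of all genes lower and 6.98% higher. At 12 h, 7 of 8 had fallen, all but Rspo3, against 9.1% lower and 8.6% higher. At 18 h, 6 of 8 had fallen, all but Rspo3 and Hhip, against 8.21% lower and 7.64% higher. At 24 h, all 8 had fallen against 3.86% lower and 5.65% higher, and at 96 h, 7 had fallen, all but Rspo3, against 5.03% lower and 5.83% higher. None was called higher than at 0 h at any timepoint. The median log2 fold change of the 8 went from -0.37 (3 h) over -1.51 (6 h), -2.37 (12 h) and -3.50 (18 h) to -4.50 (24 h) and -4.49 (96 h), whereas the median of all genes tested was 0 up to 24 h and 0.07 at 96 h. These comparisons share the same 2 samples at 0 h. At 3 h, at an unadjusted p below 0.05, 1 gene was lower (Hgf) and 1 higher (Ecm1), and DESeq2 called none. The share of all genes tested that passed this unadjusted limit was not counted.

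**Figure D1:**
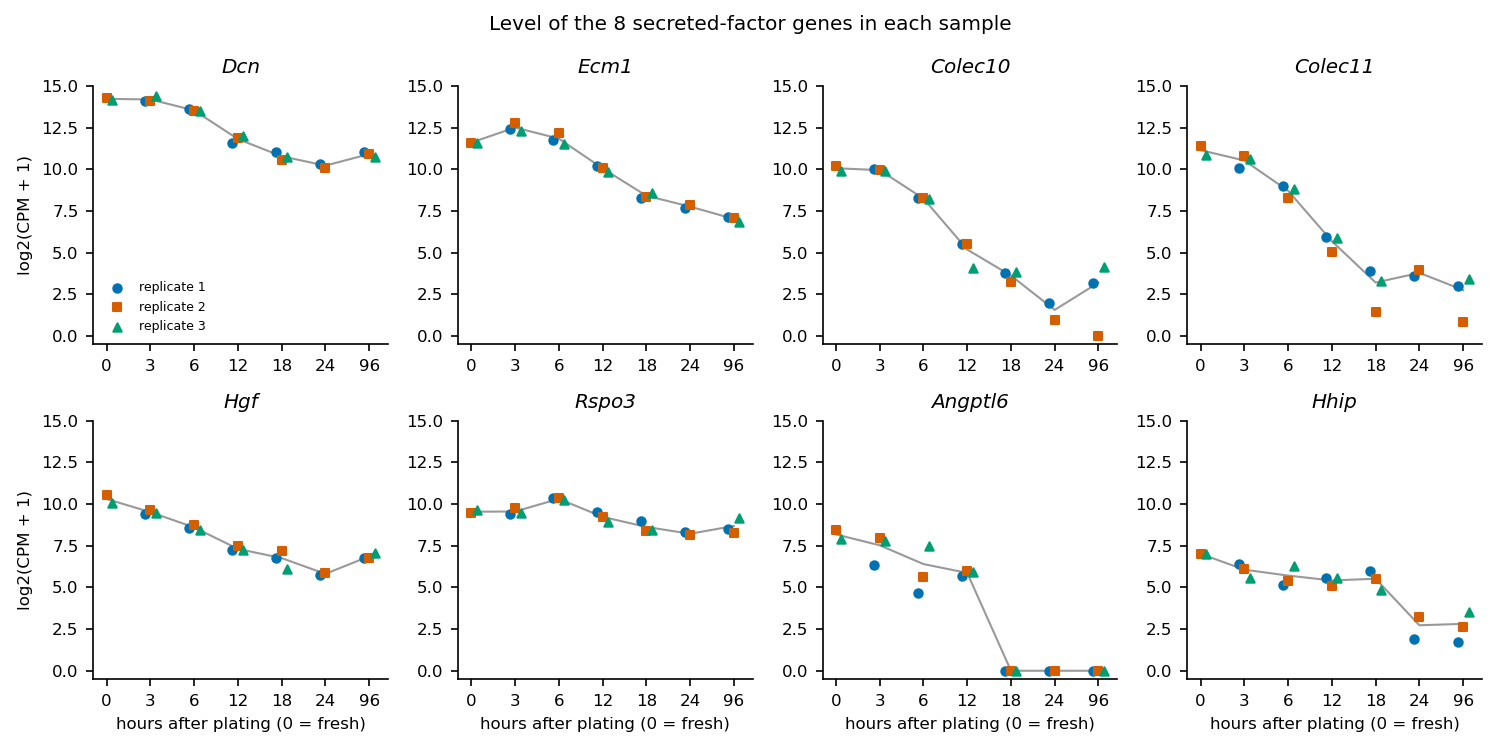
Level of each gene in each of the 19 samples, as log2(CPM + 1) against hours after plating (0 is the fraction without culture; the spacing of timepoints is not to scale). Each point is a sample, marked by its replicate number, and the line joins the means. Dcn, Ecm1 and Rspo3 stayed above 100 CPM in all samples, whereas Colec10 and Colec11 came down to 16.5 CPM or less from 18 h on.

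Decorin started at 18182 and 20177 CPM at 0 h and stood at 17260, 17219 and 21691 CPM at 3 h (replicates 1, 2 and 3 wherever 3 values are given). It measured 12332, 11616 and 11695 CPM at 6 h, 3062, 3700 and 4054 CPM at 12 h, and 2079, 1525 and 1679 CPM at 18 h. It reached 1286 and 1099 CPM at 24 h and stood at 2118, 1964 and 1703 CPM at 96 h. The 3 h samples overlapped the 0 h samples, all later samples lay below them, and the 96 h samples lay above both 24 h samples. At 6 h the log2 difference from 0 h was -0.69 ± 0.16 (SE; edgeR, adjusted p = 0.0104), a 1.61-fold difference that stayed under the 2-fold limit. Dcn fell 5.32-fold at 12 h (log2 -2.41 ± 0.16, edgeR adjusted p = 1.36e-07), 10.9-fold at 18 h, 16.1-fold at 24 h and 9.94-fold at 96 h (log2 -3.31 ± 0.17, edgeR adjusted p = 4.44e-09). The order of its mean levels was 0, 3, 6, 12, 96, 18 and 24 h, and only 0 h and 3 h, and 96 h and 18 h, had overlapping samples.

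Extracellular matrix protein 1 had the highest mean relative to 0 h of the 8 genes at any timepoint. Ecm1 measured 3122 and 3095 CPM at 0 h, 5456, 7033 and 4969 CPM at 3 h, and 3436, 4605 and 2979 CPM at 6 h. It then measured 1188, 1082 and 925 CPM at 12 h, 312, 329 and 380 CPM at 18 h, 201 and 231 CPM at 24 h, and 140, 135 and 111 CPM at 96 h. All 3 h samples lay above both 0 h samples, the 6 h samples overlapped them, and from 12 h on every timepoint lay below the one before. At 3 h its mean was 1.87 times that at 0 h (log2 0.90 ± 0.20, edgeR adjusted p = 0.0138), just under the fold limit, and without replicate 3 at 3 h the difference passed it (log2 1.04, edgeR adjusted p = 0.0157). Ecm1 fell 2.92-fold at 12 h (log2 -1.55 ± 0.19, edgeR adjusted p = 3.51e-05), 9.14-fold at 18 h, 14.4-fold at 24 h and 24.1-fold at 96 h (log2 -4.59 ± 0.21, edgeR adjusted p = 2.50e-09). Unlike Dcn, its level at 96 h lay below that at 24 h in all samples, though this step of -0.75 ± 0.19 on the log2 scale (edgeR adjusted p = 0.0599) was smaller than 2-fold.

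The collectin genes Colec10 and Colec11 lost more of their level than the other genes that still had counts at 96 h. Colec10 measured 1196 and 947 CPM at 0 h, 1027, 988 and 946 CPM at 3 h, 306, 309 and 292 CPM at 6 h, and 45.4, 44.9 and 15.7 CPM at 12 h. It then measured 12.4, 8.25 and 13.2 CPM at 18 h, 3.00 and 0.900 CPM at 24 h (14 and 7 counts), and 8.03, 0 and 16.5 CPM at 96 h (28, 0 and 98 counts, where 0 counts allow up to 0.577 CPM). The 3 h samples overlapped those at 0 h, the 6, 12 and 18 h samples each lay below the timepoint before, and the 96 h samples lay on both sides of those at 24 h. Colec10 fell 30.4-fold at 12 h (log2 -4.92 ± 0.84, edgeR adjusted p = 0.000713), 94.8-fold at 18 h and 130-fold at 96 h, and the 3.54-fold difference at 6 h was not called (edgeR adjusted p = 0.170), though DESeq2 called it (adjusted p = 0.0626). The log2 difference of -7.02 at 96 h was -8.15 without replicate 3 at 96 h and -6.43 without replicate 2.

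Colec11 measured 2668 and 1867 CPM at 0 h, 1100, 1787 and 1539 CPM at 3 h, 503, 307 and 442 CPM at 6 h, and 60.5, 32.1 and 59.0 CPM at 12 h. It measured 14.1, 1.75 and 8.75 CPM at 18 h, 11.2 and 14.4 CPM at 24 h, and 6.88, 0.770 and 9.60 CPM at 96 h. Each timepoint up to 18 h lay below the one before in all samples, the 18 h samples overlapped those at 24 h and at 96 h, and all 96 h samples lay below both 24 h samples. It was among the first of the 8 to fall, by 5.43-fold at 6 h (log2 -2.44 ± 0.64, edgeR adjusted p = 0.0226), a call that was lost without replicate 2 at 0 h (edgeR adjusted p = 0.130). Colec11 fell 44.9-fold at 12 h (log2 -5.49 ± 0.71, edgeR adjusted p = 5.80e-05) and 393-fold at 96 h (log2 -8.62 ± 0.82, edgeR adjusted p = 4.18e-06, and log2 -9.29 without replicate 3 at 96 h). In both collectin genes replicate 2 was the lowest at 18 h and at 96 h.

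HGF, the hepatocyte growth factor, fell from 6 h on. Its rise between 24 h and 96 h was called with all samples but lost without either 24 h sample, without replicate 3 at 96 h or with scaling by library size only. Hgf measured 1478 and 1057 CPM at 0 h, 690, 815 and 697 CPM at 3 h, 382, 438 and 345 CPM at 6 h, and 149, 177 and 148 CPM at 12 h. It measured 107, 147 and 68.9 CPM at 18 h, 53.6 and 56.9 CPM at 24 h, and 110, 106 and 131 CPM at 96 h. All samples in culture lay below both 0 h samples, each timepoint up to 24 h lay below the one before, and the 96 h samples lay above both 24 h samples. At 3 h the difference was 1.73-fold (log2 -0.79 ± 0.24, edgeR adjusted p = 0.0912), under the fold limit, which it passed without replicate 3 at 0 h (log2 -1.02, edgeR adjusted p = 0.0954). Hgf fell 3.26-fold at 6 h (log2 -1.71 ± 0.24, edgeR adjusted p = 0.000233), 8.01-fold at 12 h, 22.9-fold at 24 h and 10.9-fold at 96 h (edgeR adjusted p = 3.45e-07). Gm43489, a provisional gene model that lies within Hgf on the same strand (16572951 to 16573943), went from a mean of 349 CPM at 0 h to 3.92 CPM at 96 h, and whether its counts came from Hgf was not tested.

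Rspo3 kept the most of its 0 h level. It measured 695 and 798 CPM at 0 h, 689, 869 and 699 CPM at 3 h, 1301, 1300 and 1223 CPM at 6 h, and 724, 593 and 492 CPM at 12 h. It measured 500, 338 and 349 CPM at 18 h, 317 and 278 CPM at 24 h, and 357, 309 and 568 CPM at 96 h. The 6 h samples lay above those of every other timepoint, those at 3 h and 12 h overlapped 0 h, and those from 18 h on lay below it. At 6 h the mean was 1.71 times that at 0 h (log2 0.77 ± 0.25, edgeR adjusted p = 0.0706), under the fold limit. Rspo3 fell 2.51-fold at 24 h (log2 -1.33 ± 0.27, edgeR adjusted p = 0.00539). The differences at 18 h (1.89-fold, edgeR adjusted p = 0.0198) and 96 h (1.81-fold, edgeR adjusted p = 0.0360) stayed under the limit and passed it with DESeq2 (log2 -1.15 and -1.01). That at 18 h also passed it without replicate 2 at 0 h or replicate 1 at 18 h, and that at 96 h without replicate 3 at 96 h (log2 -1.17, edgeR adjusted p = 0.00439).

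Hedgehog-interacting protein had low counts, 8 to 508 in a library. Hhip measured 127 and 130 CPM at 0 h, 83.9, 68.1 and 46.0 CPM at 3 h, 34.7, 41.6 and 78.0 CPM at 6 h, and 46.8, 32.6 and 45.9 CPM at 12 h. It measured 62.9, 44.4 and 27.7 CPM at 18 h, 2.79 and 8.48 CPM at 24 h, and 2.29, 5.20 and 10.6 CPM at 96 h. All samples in culture lay below both 0 h samples, those from 3 h to 18 h overlapped each other, and those at 24 h and 96 h lay below all the rest. Hhip fell 3.08-fold at 12 h (log2 -1.62 ± 0.59, edgeR adjusted p = 0.0817), 22.5-fold at 24 h (log2 -4.49 ± 0.76, edgeR adjusted p = 0.000973) and 21.0-fold at 96 h (log2 -4.39, edgeR adjusted p = 0.000245). Without replicate 2 at 24 h the log2 difference at 24 h was -5.51, and without replicate 3 at 96 h that at 96 h was -5.07. The call at 12 h was lost with scaling by library size only (edgeR adjusted p = 0.102), with no filter on low counts (edgeR adjusted p = 0.110), with the date as a covariate and without any 1 of the 5 samples compared (edgeR adjusted p = 0.132 to 0.225). At 18 h the 2.85-fold difference was not called (edgeR adjusted p = 0.111), though DESeq2 called it (adjusted p = 0.0182).

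Angptl6 is the member whose counts are least certain. It measured 343 and 236 CPM at 0 h, 80.9, 254 and 216 CPM at 3 h, 24.9, 48.1 and 178 CPM at 6 h, and 50.0, 61.6 and 61.1 CPM at 12 h. All 8 samples at 18, 24 and 96 h had 0 counts, whereas the samples at 12 h had 216, 363 and 458 counts. In the annotation, the last 500 bases of Angptl6 (20873808 to 20874307 on chromosome 9) also belong to A230050P20Rik, a protein coding gene on the opposite strand, and whether strand was used in counting is not given in the sources used here. A230050P20Rik measured 525 and 395 CPM at 0 h, 799, 612 and 590 CPM at 3 h, 253, 229 and 0 CPM at 6 h, and 0 in all samples at 12 h. From 18 h on it measured 9.26 to 30.3 CPM. Thus A230050P20Rik stood at 0 in replicate 3 at 6 h, where Angptl6 was highest for that timepoint, and in the 12 h samples, and Angptl6 stood at 0 in all samples in which A230050P20Rik had counts again.

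After these values had been seen, the counts of both genes were also summed. This sum was 867 and 631 CPM at 0 h, 880, 866 and 806 CPM at 3 h, 278, 277 and 178 CPM at 6 h, and 50.0, 61.6 and 61.1 CPM at 12 h. It was 16.8, 21.8 and 13.8 CPM at 18 h, 30.3 and 9.26 CPM at 24 h, and 26.7, 19.4 and 13.6 CPM at 96 h. The sum had no library at 0, its samples at 3 h overlapped those at 0 h, and the samples of each timepoint from 6 h to 18 h lay below those of the timepoint before. For Angptl6 alone, the level fell 5.03-fold at 12 h (log2 -2.33 ± 0.71, edgeR adjusted p = 0.0538), a call lost without any 1 of the 5 samples compared (edgeR adjusted p = 0.1002 to 0.212). Against the floor of 3 counts in the shallowest library, its own counts were at least 396-fold lower than at 0 h at 18 h. They were at least 450-fold lower at 24 h and at least 336-fold lower at 96 h. These bounds do not hold for the RNA of Angptl6 if its reads were counted for A230050P20Rik. The sum stood at 2.33% of its 0 h mean at 18 h and 2.64% at 24 h. The sum fell at 6 h (log2 -1.62 ± 0.37, edgeR adjusted p = 0.00986), where Angptl6 alone was not called (adjusted p = 0.163), and at 12 h (log2 -3.70 ± 0.39, edgeR adjusted p = 6.89e-06). At 96 h the sum was at 2.66% of its 0 h mean (log2 -5.24 ± 0.42, edgeR adjusted p = 6.93e-07). Which of the genes the reads came from cannot be told apart in these counts, so that the fall of the locus was measured and the absence of Angptl6 from 18 h on was not.

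**Figure D2:**
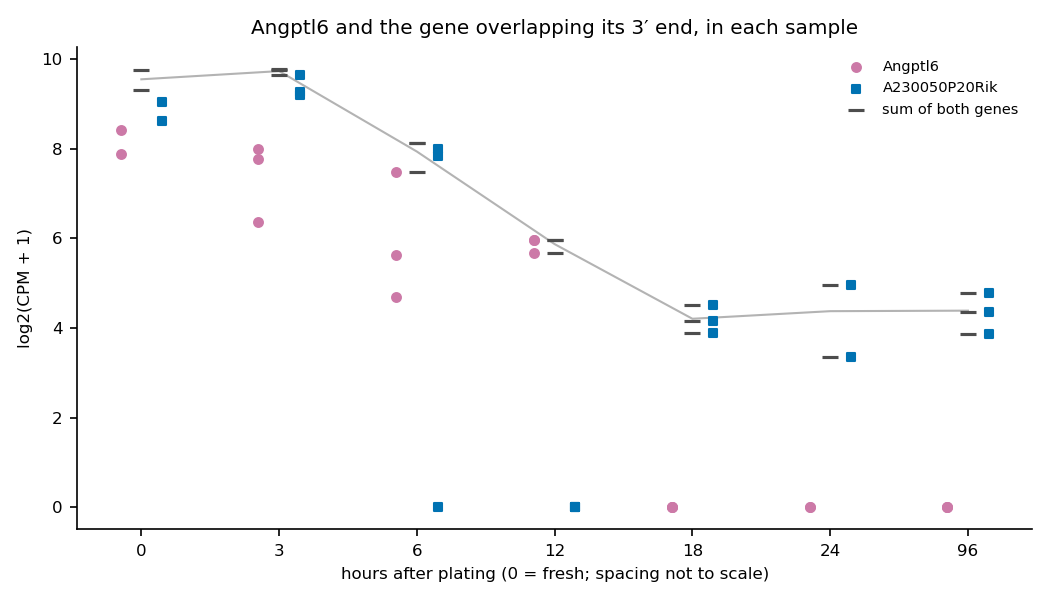
Angptl6 (circles), A230050P20Rik (squares) and the sum of both (dashes) in each sample, as log2(CPM + 1) against hours after plating, with a line through the means of the sum. Angptl6 is at 0 in all samples from 18 h on and A230050P20Rik in all samples at 12 h, whereas the sum goes from 631 to 867 CPM at 0 h to 9.26 to 30.3 CPM at 24 h.

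Set beside each other as a share of their 0 h means, the genes left their fresh level at different timepoints. Of the 8, 6 had their highest mean in fresh cells, whereas Ecm1 was highest at 3 h and Rspo3 at 6 h. The 6 include Angptl6 as counted, and its sum with A230050P20Rik was highest at 3 h (114% of 0 h). At 6 h the mean level stood at 171% of 0 h for Rspo3, 118% for Ecm1 and 61.9% for Dcn. The other 5 stood at 18.4% (Colec11) to 40.0% (Hhip) at that time. At 12 h, Colec10 and Colec11 stood at 3.30% and 2.23%, Hgf at 12.5%, Dcn at 18.8%, Angptl6 at 19.9% (7.68% for the sum, below Hgf and Dcn), Hhip at 32.5%, Ecm1 at 34.3% and Rspo3 at 80.8%. At 96 h, Rspo3 stood at 55.1%, Dcn at 10.1%, Hgf at 9.14%, Hhip at 4.70%, Ecm1 at 4.14%, Colec10 at 0.764% and Colec11 at 0.254%.

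**Figure D3:**
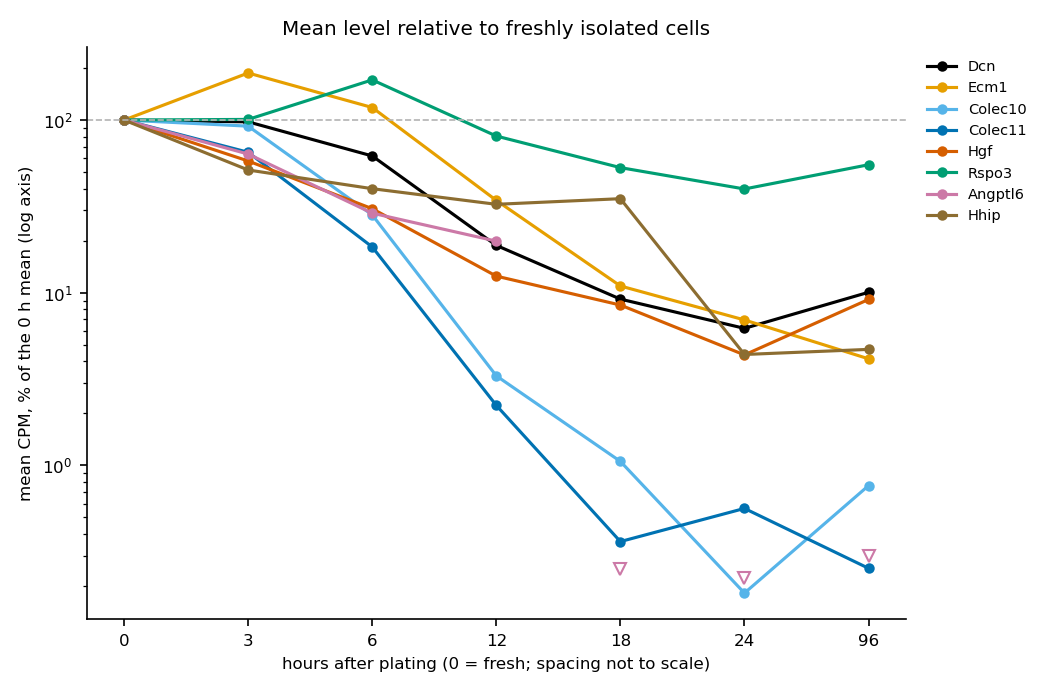
Mean CPM of each gene as a percent of its mean at 0 h, on a log axis, against hours after plating (spacing not to scale). Lines join the means of 2 or 3 samples, and open triangles mark the upper limit for Angptl6 as counted where all samples had 0 counts. This limit does not hold for its RNA if its reads were counted for A230050P20Rik. Rspo3 is at 171% at 6 h and 55.1% at 96 h, and both collectin genes are under 4% from 12 h on.

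The steps between neighbouring timepoints show between which timepoints the levels moved. They differ in length, so that the numbers called in them are not rates. From 3 h to 6 h, none of the 8 genes was called (4.49% of all genes tested were called in either direction). At an unadjusted p below 0.05, for which no share of all genes was counted, 5 were lower and Rspo3 was higher. Dcn, Ecm1 and Hgf (edgeR adjusted p = 0.0182, 0.0441 and 0.0295) and Rspo3 (edgeR adjusted p = 0.0734) missed the call by the fold limit alone. DESeq2 called 3 of the 5 lower (Colec10, Colec11 and Hgf). Colec11 was called at this step with the date as a covariate (log2 -1.92, edgeR adjusted p = 0.0807), with no filter (edgeR adjusted p = 0.0735) and without replicate 1 or 2 at 18 h or replicate 2 at 96 h (edgeR adjusted p = 0.0394 to 0.0979). Single left-out samples also brought Colec10 (replicate 2 at 96 h, edgeR adjusted p = 0.0226), Hgf (replicate 2 at 6 h, log2 -1.09) and Angptl6 (replicate 3 at 6 h, edgeR adjusted p = 0.0604) past the limits. The sum of Angptl6 with A230050P20Rik was called lower in this step (log2 -1.80 ± 0.35, edgeR adjusted p = 0.00777). From 6 h to 12 h, 6 of 8 fell (Dcn, Ecm1, Colec10, Colec11, Hgf and Rspo3), against 1.84% of all genes in either direction. Angptl6 as counted was not called, whereas its sum with A230050P20Rik fell by 2.08 ± 0.35 on the log2 scale (edgeR adjusted p = 0.00528). Colec10 and Colec11 fell most in this step, by 3.10 ± 0.75 and 3.05 ± 0.62 on the log2 scale (edgeR adjusted p = 0.0593 and 0.0207). Rspo3 came down from its 6 h level by 1.08 ± 0.22 on the log2 scale (edgeR adjusted p = 0.0212). The call for Colec10 was lost without any 1 of 5 of the 6 samples compared (edgeR adjusted p = 0.102 to 0.224), that for Colec11 without replicate 2 at 12 h (edgeR adjusted p = 0.108) and that for Rspo3 without replicate 3 at 12 h (edgeR adjusted p = 0.124).

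From 12 h to 18 h, Dcn, Ecm1 and Angptl6 as counted fell, against 0.225% of all genes. Angptl6 went to 0 counts where A230050P20Rik had counts again. Their sum fell by 1.72 ± 0.35 on the log2 scale (edgeR adjusted p = 0.0805). Dcn fell by 1.03 ± 0.15 on the log2 scale (edgeR adjusted p = 0.00654), which dropped under the fold limit without replicate 3 at 12 h (log2 -0.94) or replicate 2 at 18 h (log2 -0.96) and with scaling by library size only (log2 -0.89), and in a fit of only these timepoints its adjusted p was 0.207. Ecm1 fell by 1.65 ± 0.18 (edgeR adjusted p = 0.00146). Colec11 was lower by 2.64 ± 0.64 and not called (edgeR adjusted p = 0.160), but it was called by DESeq2 (adjusted p = 0.00142), with no filter and without replicate 2 at 96 h (edgeR adjusted p = 0.0520). From 18 h to 24 h none was called (0.0396% of all genes). At an unadjusted p below 0.05, again without a share of all genes, 5 were lower. DESeq2 called Hhip (log2 -2.97, adjusted p = 0.000412), as edgeR did Hgf without replicate 3 at 18 h (log2 -1.20, adjusted p = 0.0574). From 24 h to 96 h, Hgf rose 2.09-fold (log2 1.07 ± 0.26, edgeR adjusted p = 0.0430), against 2.72% of all genes. The rise of Hgf was lost without either sample at 24 h (edgeR adjusted p = 0.269 and 0.334), without replicate 3 at 96 h (edgeR adjusted p = 0.140) and with scaling by library size only (log2 0.94). Dcn was 1.62 times higher at 96 h than at 24 h (edgeR adjusted p = 0.0394), under the fold limit. Colec10 was called higher in this step only without its replicate at 0 counts, replicate 2 at 96 h (log2 2.74, edgeR adjusted p = 0.0213).

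Between 12 h and 96 h, Ecm1, Colec10, Colec11, Angptl6 as counted and Hhip fell, against 13.5% of all genes in either direction. The sum of Angptl6 with A230050P20Rik fell by 1.54 ± 0.35 on the log2 scale (edgeR adjusted p = 0.00853). Ecm1 fell by 3.05 ± 0.19 on the log2 scale (edgeR adjusted p = 8.31e-08), Colec11 by 3.13 ± 0.66 (edgeR adjusted p = 0.00457) and Hhip by 2.77 ± 0.57 (edgeR adjusted p = 0.00418). Without replicate 3 at 96 h the log2 differences were -3.80 for Colec11, -3.45 for Hhip and -3.23 for Colec10, and Colec10 was at -1.50 without replicate 2 at 96 h. Colec10 was on both sides of the call (edgeR adjusted p = 0.0931, and 0.390 in a fit of only these timepoints), its 12 h and 96 h samples overlapped, and the call was lost on leaving out most single samples (edgeR adjusted p = 0.103 to 0.223). Dcn differed 1.87-fold (edgeR adjusted p = 0.000578), which passed the fold limit without replicate 1 at 12 h (log2 -1.01), and Hgf and Rspo3 differed by -0.45 ± 0.22 and -0.55 ± 0.22 on the log2 scale without being called.

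**Figure D4:**
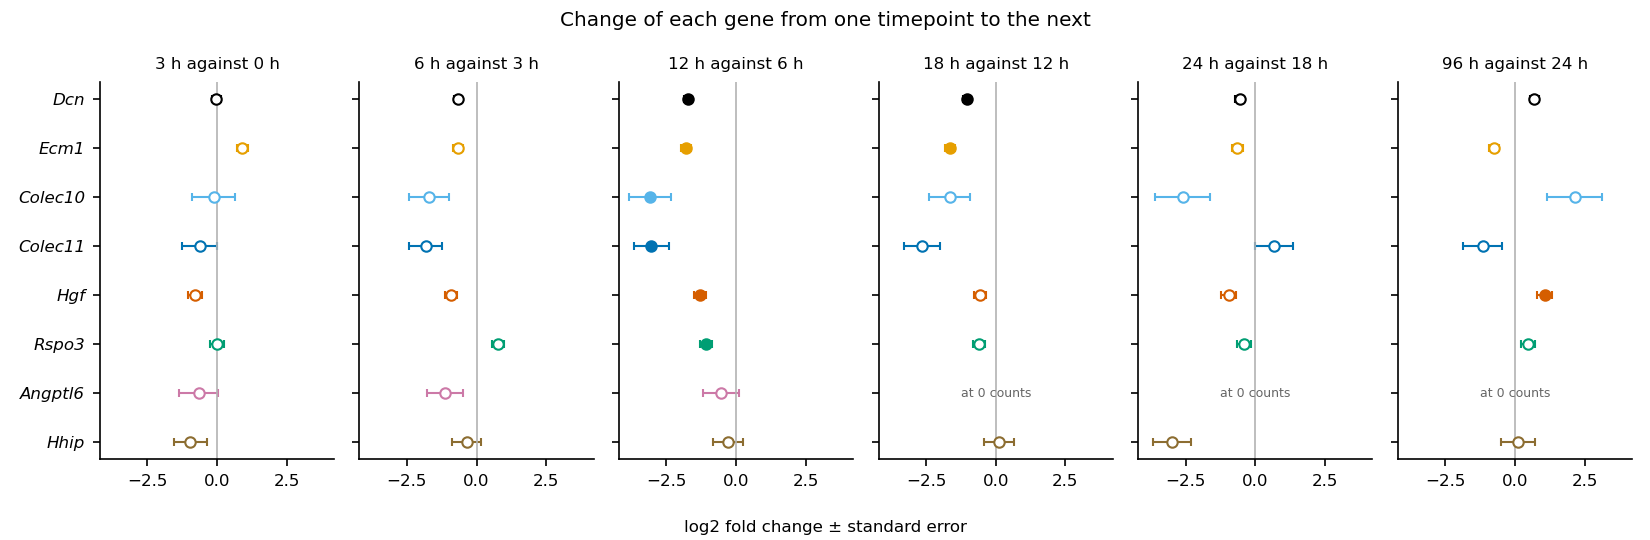
Log2 fold change of each gene from one timepoint to the next, with its standard error as a horizontal bar, from edgeR's fit of all samples. Filled points were called (adjusted p below 0.1 and fold above 2), open points were not, and Angptl6 is given as at 0 counts where all samples of the later timepoint had none. Filled points are most numerous from 6 h to 12 h, and the only filled point to the right of 0 is Hgf from 24 h to 96 h. The steps differ in length.

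Within each isolation date, the mean log2 CPM (prior count 2) at 12 h lay below that at 0 h for all 8 genes. The share of all genes tested that were lower on both dates was not counted. For Colec11 the difference was -6.36 on the date of replicate 2 and -4.96 on that of replicates 1 and 3, and for Rspo3 it was -0.23 and -0.42. At 3 h, Dcn differed by -0.23 on the date of replicate 2 and 0.09 on the other, Colec10 by -0.28 and 0.06, and Rspo3 by 0.32 and -0.20, so that these had no shared direction, whereas Ecm1 was higher on both (1.17 and 0.75) and Hgf lower on both (-0.86 and -0.61). With the isolation date as a covariate, 6 genes were called at 12 h and 7 at 96 h (the share of all genes was not counted in this fit). No test was made within a date, since each date holds 1 sample at 0 h.

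The other genes of each pathway were taken from fixed lists. Of 11 genes for the activation and signalling of HGF, 6 passed the filter, and 1 was called at 12 h and 18 h, Gab1, the adaptor of the MET receptor. Gab1 went from 108 ± 21.0 CPM at 0 h (SD, n = 2) to 6.96 ± 4.14 CPM (n = 3) at 12 h (log2 -3.94, edgeR adjusted p = 0.0510) and stood at 40.7 ± 17.2 CPM at 96 h. Met itself had 10 counts over all 19 samples and was not tested, and Hgfac, Spint1 and Mst1r had none. The median log2 fold change of the 6 genes was -3.63 at 12 h and 0.09 at 96 h. At both timepoints 3 of the 6 had counts in only 1 of the groups compared. Fitted values at 12 h ran from -9.47 (Hpn) to 7.48 (Plau), so the medians do not show a shared fall or return.

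Of 16 genes for R-spondin action and Wnt feedback, 7 passed the filter and 7 had no counts at all, among them the receptor Lgr5, the ligase Rnf43 and the other R-spondins Rspo1, Rspo2 and Rspo4. The receptor Lgr4 stood at a mean of 1.83 to 7.24 CPM and the ligase Znrf3 at 2.57 to 23.2 CPM, and neither was called at any timepoint. Nkd1, a feedback inhibitor of Wnt signalling, fell at every timepoint from 6 h on and was the only gene of the list called. Its mean was 339 ± 14.4 CPM (SD, n = 2) at 0 h, 246 ± 42.6 CPM at 3 h, 40.3 ± 11.1 CPM at 6 h (log2 -3.07, edgeR adjusted p = 0.000424) and 51.2 ± 3.08 CPM at 96 h (n = 3 each). Rspo3 had its highest mean at 6 h, without being called, and a link between its level and that of Nkd1 was not tested.

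Of 14 genes of the hedgehog pathway, 11 passed the filter, and 5 of them were called lower at 12 h, 1 at 6 h and 2 each at 18 h and 96 h. None was called higher at any timepoint. Ptch1, the receptor and a target of the pathway, went from 111 ± 10.4 CPM at 0 h (SD, n = 2) to 13.1 ± 3.57 CPM at 3 h, where it was not called (edgeR adjusted p = 0.211), and fell to 4.30 ± 5.98 CPM at 6 h (log2 -4.68, edgeR adjusted p = 0.0274). Smo, the signal transducer, fell at 12 h from 27.1 ± 14.2 to 2.64 ± 2.96 CPM (edgeR adjusted p = 0.0399). Gas1, a coreceptor, fell at 12 h and 18 h, and Dhh, a ligand, at 12, 18 and 96 h, both from means under 50 CPM. Gli1, another target, had counts at 3 h only, where its samples ran from 0 to 12.2 CPM, and Shh and Ihh had no counts.

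The lectin pathway and the leucine-rich proteoglycans hold the relatives of the collectins and of decorin. Of 11 further genes of the lectin pathway, 10 passed the filter, and 6 were called lower at 12 h, 7 at 18 h and 5 each at 24 h and 96 h. Masp1, a protease that collectins recruit, fell from 1737 ± 125 CPM (SD, n = 2) to 512 ± 68.9 CPM at 12 h (log2 -1.76, edgeR adjusted p = 0.00113) and stood at 1163 ± 124 CPM at 96 h without being called (edgeR adjusted p = 0.313). Ficolin A (Fcna), another lectin of the pathway, fell from 1278 ± 361 CPM to 279 ± 42.5 CPM at 12 h and 58.0 ± 9.59 CPM at 96 h (log2 -4.46, edgeR adjusted p = 8.27e-08). Serping1, the C1 inhibitor, and the component C2 fell at the same 4 timepoints, and the scavenger receptor Colec12 fell at 12 h and 18 h only and stood at 59.1 ± 13.9 CPM at 96 h against 60.0 ± 8.93 CPM at 0 h. At 96 h the median log2 fold change of the 10 genes was -5.03 as fitted. Mbl1 and Mbl2, mannose-binding lectins with counts in 1 of 2 samples at 0 h and none at 96 h, were not called, and with these genes at the bound that 3 counts allow and without Masp2, which had no counts in either group, the median of 9 genes was -4.03.

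Of 15 further small leucine-rich proteoglycans, 9 passed the filter. Biglycan (Bgn), the closest relative of decorin, rose at 3 h from 3287 ± 91.9 CPM (SD, n = 2) to 7542 ± 703 CPM (log2 1.20, edgeR adjusted p = 0.00226), fell at 12, 18 and 24 h, and stood at 1658 ± 274 CPM at 96 h. Prelp fell from 6 h on and had its lowest mean of 33.9 ± 11.7 CPM at 18 h, against 1717 ± 171 CPM at 0 h and 479 ± 98.5 CPM at 96 h. Lumican (Lum) fell from 12 h on (517 ± 101 CPM at 0 h, 28.3 ± 16.8 CPM at 12 h and 55.2 ± 5.49 CPM at 96 h). Of the low genes, Ogn fell at 24 h, Podn at 12 h and 18 h, and Ecm2 at 18 h. In all, 1 gene was called higher at 3 h, and 1, 4, 5, 4 and 2 were called lower at 6, 12, 18, 24 and 96 h.

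Of 11 angiopoietins, angiopoietin-like genes and their receptors, 8 passed the filter. Angptl2 fell at every timepoint from 6 h on, from 573 ± 109 CPM at 0 h (SD, n = 2) to 81.8 ± 25.4 CPM at 6 h (log2 -2.81, edgeR adjusted p = 0.0211) and 27.5 ± 15.1 CPM at 96 h. Angpt2, a ligand of the receptor TIE2, rose at every timepoint from 6 h on, from 3.89 ± 3.37 CPM to 106 ± 52.4 CPM at 12 h (log2 4.69, edgeR adjusted p = 0.00602). Angptl4 rose at 96 h, to 106 ± 42.8 CPM from 9.40 ± 13.3 CPM (log2 3.45, edgeR adjusted p = 0.0936). The fitted median of the list, -6.85 from 18 h on, rests mostly on genes with low counts at 0 h and none later, and with these at the bound that 3 counts allow it was -2.04 at 18 h, -2.78 at 24 h and -2.36 at 96 h.

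The pattern of each gene over the 19 samples was compared with the others as Pearson's r of log2 CPM (prior count 2), as a description, since all points share libraries and timepoints. Among the 8 genes, r ran from 0.64 (Rspo3 with Hhip) to 0.96 (Dcn with Hgf). Over the 8574 genes tested with a mean of at least 10 CPM, the genes most like Dcn were Col14a1 (r = 0.98), Reln and Abcc9, and Col14a1 (r = 0.94), Junb and Reln were most like Colec10. Calcrl (r = 0.97), Abcc9 and Reln were most like Hgf. Fcna (r = 0.98), Rgs5 and Sparcl1 were most like Ecm1, and Ifitm1 (r = 0.98), C1ra and Ngfr were most like Colec11. Ngfr (r = 0.95), Egr1 and Steap4 were most like Angptl6 as counted. Genes most like Hhip included Egr2 (r = 0.90) and Gm43489, and those most like Rspo3, with the lowest values, included Asap1 (r = 0.86) and Steap4.

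The labelled cell type was checked against marker lists. All 12 stellate cell markers had counts, their summed level was 7124 and 8682 CPM at 0 h, 336 to 430 CPM at 12 h and 804 to 879 CPM at 96 h, and 10 of the 12 had fallen at 12 h. Vipr1 was the highest of them over all samples. Gfap had a mean of 8.65 CPM at 0 h, from samples at 0 and 17.3 CPM, and 0 from 6 h on, and was not called at any timepoint. The 8 markers of activated HSCs, led by Vim, summed to 3212 and 4169 CPM at 0 h and 6682 to 8454 CPM at 96 h, where 5 had risen and 1 fallen. The sums for hepatocytes, Kupffer cells, portal fibroblasts and sinusoidal endothelial cells were also lower at 96 h than at 0 h. At 3 h the mean hepatocyte sum was 721 CPM against 5698 CPM at 0 h, and 1 of the 10 hepatocyte markers was called lower. The mean endothelial sum had gone from 887 CPM at 0 h to 2156 CPM at 3 h. The 10 hepatocyte markers, led by Alb, summed to 3609 and 7787 CPM at 0 h, 407 to 1288 CPM at 3 h and 27.5 to 95.5 CPM at 96 h. The 9 Kupffer cell markers, led by Csf1r and with Marco at 0, summed to 342 and 365 CPM at 0 h and 10.0 to 23.2 CPM at 96 h. The 9 markers of portal fibroblasts, led by Clec3b and with Pi16 at 0, went from 276 and 362 CPM to 15.5 to 30.0 CPM. The 9 markers of sinusoidal endothelial cells, led by Dnase1l3, summed to 706 and 1068 CPM at 0 h, 1020 to 3940 CPM at 3 h and 9.43 to 156 CPM at 96 h. Markers of cholangiocytes (Krt19 and Krt7 among those at 0), mesothelial cells (Msln, Upk3b, Lrrn4 and Upk1b at 0) and lymphocytes (Cd3d, Cd79a, Nkg7 and Ms4a1 at 0) summed to at most 17.7 CPM in any sample. The part of these other cells in the levels of the 8 genes was not tested.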

How the data were processed

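RNASeq counts of HSCs sorted from mice and cultured for 0 to 96 h were used (19 samples). According to the labels and the paper's methods, libraries were made with a 3' mRNA kit (QuantSeq FWD), and single-end reads were trimmed, mapped to GRCm38.p6 (mm10) with STAR and assembled with StringTie. The counting tool and annotation release are not given in the sources used here. The authors deposited raw counts per gene, whole numbers without normalization. Of 55487 Ensembl identifiers, 55141 matched a symbol. Timepoints, replicate numbers and isolation dates came from the labels.

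The software was R 4.3.3 with edgeR 4.0.16 and DESeq2 1.42.0 (an alternative), and Python 3.11.15 with pandas 2.3.3 and matplotlib 3.10.9. Genes were filtered by filterByExpr at its defaults (15138 left), scaled by TMM and tested with edgeR's quasi-likelihood F test in 1 fit by timepoint, with Benjamini-Hochberg adjustment. The standard error is the log2 fold change divided by the square root of F. Log2 CPM used a prior count of 2, and floors used 3 counts. Libraries held 2073171 to 7690892 counts, so that low genes are measured least precisely. The biological coefficient of variation was 1.06, and Pearson's r of log2 CPM across genes between samples of 1 timepoint was 0.768 at 0 h and 0.802 to 0.868 later. The scripts were tested on simulated data.

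The paper describes the repeats of each timepoint as independent, and 0 h and 24 h hold fewer samples here than the repeats it states. Nothing states that the samples of a timepoint came from separate animals, so p-values measure the spread between these samples. The alternatives were scaling by library size, DESeq2, no filter, the replicate number as a block, the isolation date as a covariate, only the 2 groups compared, another threshold and leaving out each sample; the sum of Angptl6 with A230050P20Rik was added after seeing the data.

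The 8 genes, the pathway and marker lists and the rule for named genes were chosen with earlier results of these data known. The rule named all 8 genes, preset genes of each list, up to 4 further called genes a list with the highest mean CPM, the 3 genes most like each of the 8, and of each marker list the highest gene and those at 0. Gm43489 and A230050P20Rik were named for their overlap, and Gfap was added after its values were seen. A few genes that the rule named are counted in their lists but not reported here.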

Additional observations from a re-analysis of the deposited data

How the results depend on the processing

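All 8 genes were called lower at 24 h under every alternative, and none was called higher than at 0 h under any, apart from Ecm1 at 3 h. Leaving out 1 sample at a time, the number of genes called ranged from 0 to 1 at 3 h, 1 to 3 at 6 h, 5 to 7 at 12 h, 6 to 7 at 18 h, 8 to 8 at 24 h and 7 to 8 at 96 h against 0 h. It ranged from 0 to 2 from 3 h to 6 h, 4 to 6 from 6 h to 12 h, 2 to 4 from 12 h to 18 h, 0 to 1 from 18 h to 24 h, 0 to 2 from 24 h to 96 h and 4 to 5 from 12 h to 96 h. With DESeq2, 5 genes were called at 6 h against 0 h, 3 from 3 h to 6 h and 1 from 18 h to 24 h, in place of 2, 0 and 0. The share of all genes called was not counted under the alternatives, so these numbers cannot be set against it. From 3 h to 6 h, 1 gene was called with no filter, with the replicate number as a term (replicate block), with the date as a covariate or with Angptl6 summed with A230050P20Rik, and 2 in a fit of only the groups compared. With an adjusted p below 0.05 and no fold limit, 1 gene was called at 3 h (Ecm1, higher), 3 from 3 h to 6 h and 2 from 24 h to 96 h. Scaling by library size left 0 from 24 h to 96 h. With the replicate block, Hhip at 12 h (adjusted p = 0.142) and Colec10 from 12 h to 96 h (adjusted p = 0.113) were not called, and no other call against 0 h changed. Samples of a replicate number also share an isolation date, and the labels do not say what else they share. Residuals of same-numbered samples correlated at a mean r of 0.0143 (51 pairs, at most 0.0821), against -0.00704 in the other 103 pairs. In all, 13 of 19 samples correlated best with their own number.

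At 3 h, near-zero differences changed sign: Dcn was at 0.023 in a fit of only the groups compared (-0.115 to 0.077 without single samples) and Colec10 at -0.28 to 0.10 without single samples. Rspo3 was at -0.046 with scaling by library size, -0.076 with DESeq2 and -0.018 with the replicate block (-0.066 to 0.106 without single samples), and Angptl6 was at 0.18 when summed (log2 scale). The causes were not tested, apart from the fold limit, the filter and the number of samples that the alternatives changed themselves. Leaving aside single left-out samples and the other threshold, 318 of the other values of single genes against 0 h kept their direction and side of the threshold, 9 gained a call and 4 lost one (all 4 Hhip at 12 h). Without single samples, 209 kept both, 6 gained a call and 11 lost one (Angptl6 and Hhip at 12 h, 5 each, and Colec11 at 6 h, 1). The other threshold also ended the calls of Angptl6 and Hhip at 12 h. Counts under about 100 a library, as for Colec10, Colec11 and Hhip late in culture, limit the precision.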

Other observations

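Other factors that HSCs release were called in both directions. Of 13 such genes fixed as a list, all passed the filter. Numbers called lower than at 0 h were 0 at 3 h, 1 at 6 h, 6 at 12 h and 7 each at 18, 24 and 96 h, and 2 were called higher at each of 3, 6, 12 and 18 h. Of all genes tested, 1.39%, 4.35%, 9.1%, 8.21%, 3.86% and 5.03% were called lower at these 6 timepoints in turn. Those called higher made up 4.19%, 6.98%, 8.6% and 7.64% at 3, 6, 12 and 18 h. Among those that rose was Bmp10, a ligand of the BMP family. It went from 314 ± 13.4 CPM at 0 h (SD, n = 2) to 2401 ± 922 CPM at 6 h (log2 2.93, edgeR adjusted p = 6.37e-05) and stood at 423 ± 85.6 CPM at 96 h.

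Reln, which codes for the glycoprotein reelin, fell from 12 h on, from 2301 ± 115 CPM at 0 h (SD, n = 2) to 459 ± 89.6 CPM at 12 h and 227 ± 31 CPM at 96 h (log2 -3.34, edgeR adjusted p = 7.43e-07). Sod3, an extracellular superoxide dismutase, fell at 12, 18 and 24 h, from 1882 ± 188 CPM to 20.5 ± 7.15 CPM at 24 h, and stood at 471 ± 173 CPM at 96 h. Cxcl12, a chemokine, was called at 96 h only, where it fell from 3351 ± 821 CPM to 1045 ± 116 CPM (log2 -1.68, edgeR adjusted p = 3.15e-05), and its mean at 24 h was 4946 ± 239 CPM.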
